A study of Mus musculus with 49 samples.

Results

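The transcripts of 9 genes of pericellular proteolysis were followed through hepatocyte dedifferentiation. They encode the plasminogen activators urokinase (Plau) and tissue-type activator (Plat), the urokinase receptor (Plaur), the metalloproteinases Mmp7, Mmp14 and Mmp15, and the tissue inhibitors of metalloproteinases Timp1, Timp2 and Timp3. The members were chosen by symbol, with earlier results of these data known. Each matched 1 Ensembl identifier, which gave 9 of the 46078 identifiers in the table. Poly(A) RNA had been sequenced at the 3′ end of transcripts by CEL-Seq2, a method in which a random tag (unique molecular identifier, UMI) marks each captured molecule, so that a count stands for a transcript molecule and levels of different genes can be compared without a length correction. The table held 49 libraries of 16 conditions, all from wild-type C57BL/6J mice.

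The liver libraries began with hepatocytes freshly isolated from livers of 10-week-old adults (FHs, n = 3). Hepatocytes plated as a monolayer with EGF at 20 ng/mL were taken at 3 h, 1 day, 2 days, 4 days, 7 days and 14 days (n = 3 each). Other plates received verteporfin at 0.3 µM or the solvent DMSO for 7 days (n = 2 each). The expandable cells that grow out of such cultures, called dediHeps, were profiled in monolayer (n = 5), as aggregates in ultra-low attachment wells, a format in which they regain hepatocyte traits (n = 3), as spherical organoids in Matrigel (dediHep-SOs, n = 3) and, after transfection with Cdx2, as budding organoids (dediHep-BOs, n = 3). The verteporfin and DMSO plates and the dediHep monolayers also had EGF at 20 ng/mL. Aggregates were kept in a separate medium, for which the labels give no EGF dose. CLiPs, liver progenitors derived from hepatocytes with small molecules, were grown in monolayer (n = 3). Intestinal references were spherical organoids of progenitor cells from E13.5 fetal intestine (FIPC-SOs, n = 3) and budding organoids of adult small intestinal crypts from 10-week-old mice (ISC-BOs, n = 4). The labels name 5 dediHep cultures, of which 3 also gave the aggregates and 3 the dediHep-SOs. For the time course, verteporfin and DMSO libraries the sample descriptions carry a number that recurs between groups, and the study states that its experiments were repeated independently. No label says which replicates came from separate animals, so that p-values measure the spread between these libraries. Cultures can hold residual non-parenchymal cells, and in bulk RNA fewer cells of a type and less RNA per cell cannot be told apart.

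As background, urokinase bound to its receptor and tissue-type activator both cleave plasminogen, which the liver secretes, into plasmin. Plasmin degrades fibrin and matrix and can activate pro-metalloproteinases. Mmp14 and Mmp15 are membrane-type metalloproteinases anchored at the cell surface, and Mmp7 (matrilysin) is a small secreted enzyme known from Paneth cells and from injured or ductal epithelia. TIMPs bind metalloproteinases in their active site: Timp1 acts mainly on secreted enzymes, Timp2 also takes part in the activation of pro-Mmp2 by Mmp14, and Timp3 is held in the matrix and also inhibits ADAM proteases.

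In GENCODE M21 (GRCm38), Plau lies on the plus strand of chromosome 14 (20836660 to 20843385), Plaur on chromosome 7 (24462484 to 24475968, plus), Plat on chromosome 8 (22757727 to 22782844, plus) and Mmp7 on chromosome 9 (7692090 to 7699585, plus). Mmp14 lies on chromosome 14 (54431612 to 54445364, plus) and Mmp15 on chromosome 8 (95352268 to 95375080, plus). Timp1 is on chromosome X (20870166 to 20874735, plus) inside Syn1 on the opposite strand, Timp3 is on chromosome 10 (86300372 to 86349506, plus) inside Syn3 on the opposite strand, and Timp2 is on chromosome 11 (118301069 to 118355740, minus) and shares its strand with Cep295nl. Whether counting used the strand is not given in the sources used here. The highest total of Syn1 in a condition was 29 counts, in CLiPs, where Timp1 had 106. That of Syn3 was 17, in dediHep-SOs, where Timp3 had 556, and that of Cep295nl was 10, in dediHeps, where Timp2 had 4302.

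Promoter sequence of 7 members, from 250 bases before to 50 bases after a RefSeq start site (GRCm38.p6), was searched on both strands for the letters of motifs bound by factors of injury and growth responses and of intestinal identity. Plau and Plat had no entry. The AP-1 motif TGANTCA was found in the windows of Plaur and Mmp7 and in 7.81% of 32851 promoter windows of all genes. The TEAD motif GGAATG was found in that of Timp1 (14.7% of all windows), the TCF/LEF motif CTTTGA in those of Mmp7 and Timp1 (16% of all windows), and the CDX motif TTTATG in none of the members (11.9% of all windows). The stretches below are shown because the AP-1 letters stand at like distances, 69 and 63 bases before the start sites, in the receptor that was higher in hepatocyte culture and in the enzyme that was higher in organoids; a match is a run of letters and not evidence of binding. Capitals mark the motif.
Plaur, AP-1, chr7:24462404-24462430, plus strand: cccctggagcTGACTCActctttagca
Mmp7, AP-1, chr9:7692017-7692043, plus strand: agtgtgcaaaTGAGTCAcctatttcca
Mmp7, TCF/LEF on the opposite strand, chr9:7692085-7692110, plus strand: tcaggaaacaTCAAAGtagctctgag
Timp1, TEAD, chrX:20869916-20869934, plus strand: acaGGAATGcctttcttgt

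Each library held between 861047 and 3872936 counts (median 1976760), and 3 counts in a library, the limit that a count of 0 allows, were 0.775 to 3.48 CPM (counts scaled to a common library size). These were scaled with TMM factors over all 49 libraries. These factors were 0.633 to 0.735 in FHs and 0.640 to 0.647 at 3 h, which raised their CPM against CPM of the library total. Markers were summed to check the labels. The 8 hepatocyte markers summed to 17988 to 23878 CPM in FHs, to 845 to 4361 in dediHeps and to 1499 to 2016 in ISC-BOs. The 7 Paneth cell markers summed to 3475 to 4672 in ISC-BOs against 14.1 to 16.7 in dediHep-SOs. The 6 intestinal epithelium markers summed to 2057 to 3069 in ISC-BOs and 1009 to 1209 in FIPC-SOs. In dediHep-SOs their sums of 565 to 633 lay within those of dediHeps, 431 to 974, and Fabp2 had no count. Markers of other cells were present too. In FHs the 8 endothelial markers summed to 184 to 321 CPM and the 11 markers of stellate cells or fibroblasts to 85.8 to 208. The latter summed to 45.5 to 180 at 7 days and 75.6 to 363 at 14 days, and to 490 in FIPC-SO replicate 3 and 298 and 295 in dediHep-BO replicates 1 and 2, against 4.74 to 12.8 in the other libraries of those organoids. In dediHeps both lists were at or near 0, with sums of 0 to 0.965 and 0.508 to 2.74. The 9 markers of macrophages or blood cells summed to 108 to 325 CPM in FHs and 3.59 to 12.8 at 3 h, to 166 and 183 in 14-day replicates 1 and 2 against 11.4 in replicate 3, and to 70.9 to 149 in CLiPs against 1.45 to 10.5 in dediHeps. The sum in CLiPs came from 3 of the 9 markers, while Ptprc, Adgre1, Clec4f, Cd5l, Vsig4 and C1qa had no count there. Over all genes, dediHep replicate 1 stood apart from the other 4 dediHep cultures, with rank correlations of 0.759 to 0.842 to them, against 0.880 to 0.917 among them. Group differences were tested with the edgeR quasi-likelihood test across all genes with Benjamini-Hochberg adjustment (false discovery rate, FDR), and a gene was called where its FDR was below 0.1 and its log2 fold change was beyond 2 in either direction.

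The first question was how the members changed while hepatocytes dedifferentiated. Receptor, tissue-type activator, Timp1 and, at 7 and 14 days, Mmp14 were higher in culture, Mmp15 was lower, and Timp2 first fell and then rose. Of the 7 members that could be tested, 2 were called at 3 h, where 6.91% of 12443 genes were called. At 1 day 3 of 7 were called (17.4% of all genes), at 2 days 5 of 7 (21.3%), at 4 days 5 of 7 (23.8%), at 7 days 5 of 7 (25.9%) and at 14 days 6 of 7 (29.5%). Over the 6 times these were 26 member calls, against 20.8% of all tests. Since the members were chosen with earlier results of these data known, these shares are no test of the set. Plaur, Plat and Timp1, with 1, 0 and 0 counts in FHs, passed the filter on low counts through the culture libraries. The median log2 fold change of the 7 tested members went from -0.48 at 3 h to 4.67 at 14 days, where the medians of all tested genes were -0.07 and 0.04. With members at 0 to 3 counts in a group set to their bound or count ratio, the median at 14 days was 3.17. Plau and Mmp7 did not pass the filter on low counts at these times.

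**Figure D1:**
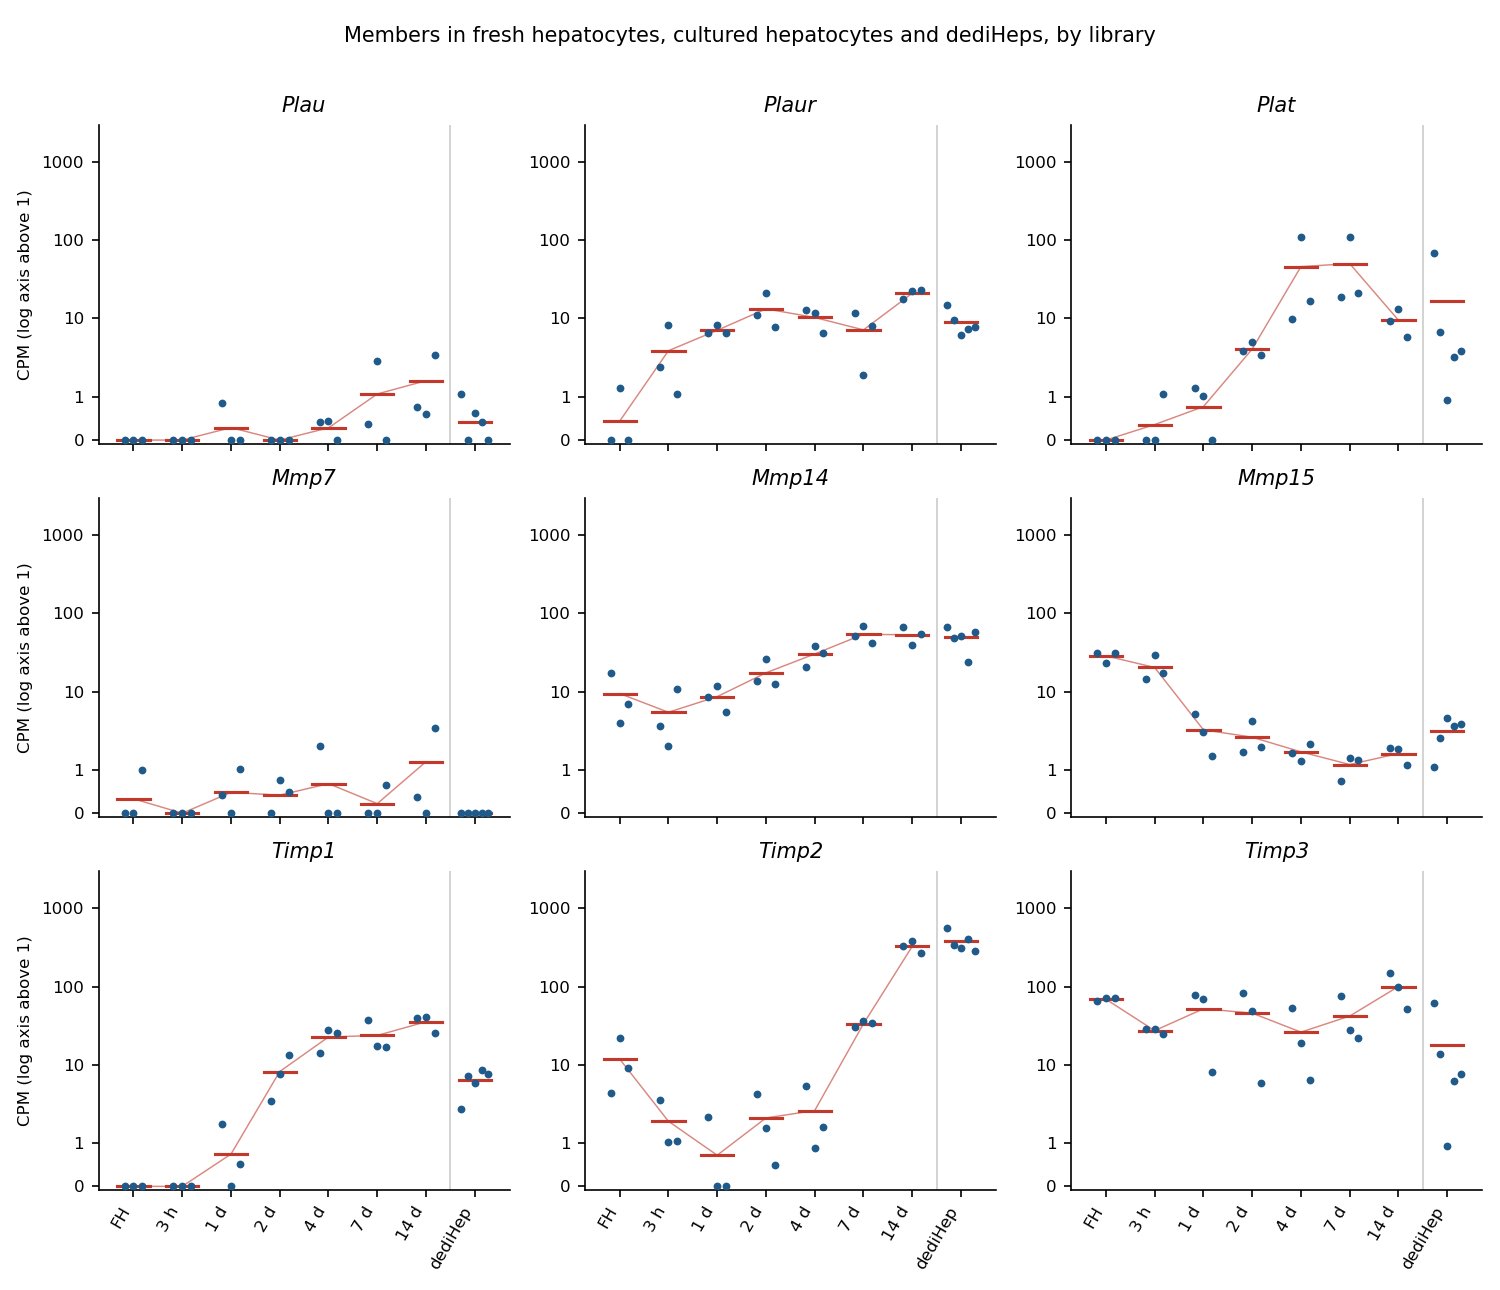
Level of each member in CPM (symmetric log axis, linear under 1) in FHs, at 6 times after plating and in dediHeps; each point is a library and red bars are means. Plaur, Plat and Timp1 were higher than in FHs from 2 days on and Mmp14 at 7 and 14 days, Mmp15 was lower from 1 day on, and Timp2 had its lowest mean, 0.717 CPM, at 1 day and reached 326 at 14 days.

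The receptor Plaur was at 0, 1.30 and 0 CPM in FHs and at 2.39, 8.13 and 1.07 at 3 h. It stood at 6.45, 8.13 and 6.57 at 1 day and at 11.0, 21.03 and 7.71 at 2 days. The values were 12.7, 11.8 and 6.42 at 4 days, 11.6, 1.91 and 7.92 at 7 days, and 17.6, 22.4 and 22.9 at 14 days. From 1 day on no culture library overlapped with FHs, and at 3 h the lowest library lay under the highest FH. FHs held 1 Plaur count in all. The ratio to FHs was 10.7 at 3 h (95% counting interval 1.56 to 462, FDR = 0.0835) and 53.9 at 14 days (9.47 to 2150.5, FDR = 8.1e-05). The call at 3 h was lost without FH replicate 1 (FDR = 0.148), FH replicate 3 (0.255) or 3 h replicate 2 (0.403).

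Plat, the activator that works in fibrinolysis, had no count in FHs. At 3 h 1 library of 3 held a single count, and at 1 day the levels were 1.29, 1.02 and 0 CPM. They were 3.82, 4.97 and 3.37 at 2 days, 9.80, 112 and 16.6 at 4 days, 18.7, 110.5 and 21.4 at 7 days, and 9.39, 13.3 and 5.72 at 14 days. Replicate 2 thus stood far above the other libraries at 4 and at 7 days, and every library from 2 days on was above all FHs. Against 3 counts over the 3 FHs, Plat was at least 42.2-fold higher at 4 days (FDR = 0.000319), at least 39.8-fold at 7 days (0.000239) and at least 8.99-fold at 14 days (0.0117). Without the high replicate 2 the bound was 11.4-fold at 4 days, from 55 of the 311 counts, and 18.1-fold at 7 days, from 115 of 346. The call at 2 days, at least 3.69-fold (FDR = 0.0722), was lost without any 1 of the 3 FHs or 2 day replicate 2 (FDR 0.119 to 0.149). Plau, which encodes urokinase itself, had at most 6 counts in any library of the time course, and its highest mean there was 1.60 CPM at 14 days.

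Mmp15 and Mmp14, both membrane-anchored, moved in opposite directions. Mmp15 was at 31.5, 23.5 and 30.9 CPM in FHs, 14.4, 29.5 and 17.1 at 3 h and 5.16, 3.05 and 1.52 at 1 day. It stayed at or under 4.21 CPM in every later library, which left no overlap with FHs from 1 day on. The log2 fold change was -3.27 ± 0.49 (SE) at 1 day (FDR = 1.93e-05) and -4.71 ± 0.54 at 7 days (FDR = 2.46e-07). Without a TMM factor the FH mean of Mmp15 was 19.5 instead of 28.6 CPM, still above the means of 1.34 to 3.16 from 1 day on.

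Mmp14 was at 17.4, 3.91 and 6.98 CPM in FHs and at 3.59, 2.03 and 10.7 at 3 h. It rose to 51.9, 67.9 and 42.2 at 7 days and 66.1, 39.4 and 53.8 at 14 days. Both late times lay wholly above FHs. The log2 fold changes were 1.52 ± 0.52 at 4 days (FDR = 0.0235), under the fold threshold, 2.34 ± 0.52 at 7 days (FDR = 0.000905) and 2.33 ± 0.52 at 14 days (FDR = 0.000893). FH replicate 1, the highest FH, held the fold at 4 days under the threshold (2.31 without it), and without FH replicate 2 the fold at 14 days was 2.00 (1.9962). Mmp7 had at most 5 counts in any library through day 14.

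The 3 inhibitors each followed their own course. Timp1 had no count in FHs or at 3 h and was at 1.72, 0 and 0.505 CPM at 1 day. It was then at 3.40, 7.65 and 13.49 at 2 days, 14.3, 27.9 and 25.7 at 4 days, 37.0, 17.2 and 16.8 at 7 days, and 39.8, 41.3 and 25.2 at 14 days. No library from 2 days on overlapped with FHs. Timp1 was at least 7.12-fold higher at 2 days (FDR = 0.0013) and at least 33.9-fold higher at 14 days (FDR = 1.06e-05).

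Timp2 was at 4.35, 22.2 and 8.98 CPM in FHs. It fell by 2.61 ± 0.88 on the log2 scale at 3 h (FDR = 0.0578) and by 3.93 ± 0.85 at 1 day (FDR = 0.00102), where it had 2.15, 0 and 0 CPM. It was then at 30.6, 35.9 and 33.7 CPM at 7 days and at 326, 385 and 267 at 14 days, with log2 fold changes of 1.38 ± 0.60 (FDR = 0.0709) and 4.67 ± 0.63 (FDR = 2.45e-06). All libraries at 7 and 14 days lay above all FHs. The early falls at 3 h, 2 days and 4 days depended on FH replicate 2, without which the FDR was 0.289, 0.102 and 0.178, and the fold at 7 days was 2.16. The fall at 3 h was also lost without 3 h replicate 2 or 3 (FDR 0.179 and 0.171), and at 4 days the fold was under the threshold without replicate 2 or 3 of that time (-1.80 and -1.99).

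Timp3 was not called at any time in the fit without a replicate block, with FDR values from 0.116 at 4 days to 0.691 at 14 days. It was called lower at 4 days without 4 day replicate 1 (-2.54, FDR = 0.0268) and with the title number as a block (-2.03, FDR = 0.00892). It was the most abundant of the 9 in FHs, at 65.3, 70.4 and 70.8 CPM (mean 68.8, and 46.4 without a TMM factor). The libraries of 1 time differed widely: 77.4, 70.2 and 8.08 at 1 day, 81.9, 49.3 and 5.78 at 2 days, 53.1, 18.7 and 6.42 at 4 days, 75.8, 27.7 and 22.1 at 7 days, and 151, 97.7 and 51.5 at 14 days. At 1, 2, 4 and 7 days the library highest in Timp3 was also the highest in the summed endothelial markers, and the lowest was the lowest. These sums, with 5 to 8 of the 8 markers detected in a library, were 174, 110 and 34.9 CPM at 1 day, 144, 101 and 17.8 at 2 days, 51.9, 25.7 and 9.63 at 4 days, and 45.2, 11.0 and 3.63 at 7 days. At 14 days they were 6.01, 4.85 and 9.16, in another order than Timp3. The order also differed in FHs, with sums of 184, 321 and 285. At 3 h it differed as well, with sums of 69.4, 113 and 59.9 beside Timp3 at 28.7, 28.5 and 24.6 CPM. Markers of stellate cells or fibroblasts and of macrophages or blood cells stood in the same order as Timp3 at 2, 4 and 7 days, and both were lowest in replicate 3 at 1 day. The former summed to 35.7, 36.6 and 4.04 CPM at 1 day and 180, 121 and 45.5 at 7 days, and the latter to 83.4, 87.9 and 5.56 at 1 day and 113, 23.4 and 2.64 at 7 days. From 1 to 14 days the libraries with the same title number also share the number in their descriptions. The like order at several times may thus repeat 1 ranking and is not a set of separate agreements. The part of any of these cells in the Timp3 values was not tested.

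**Figure D2:**
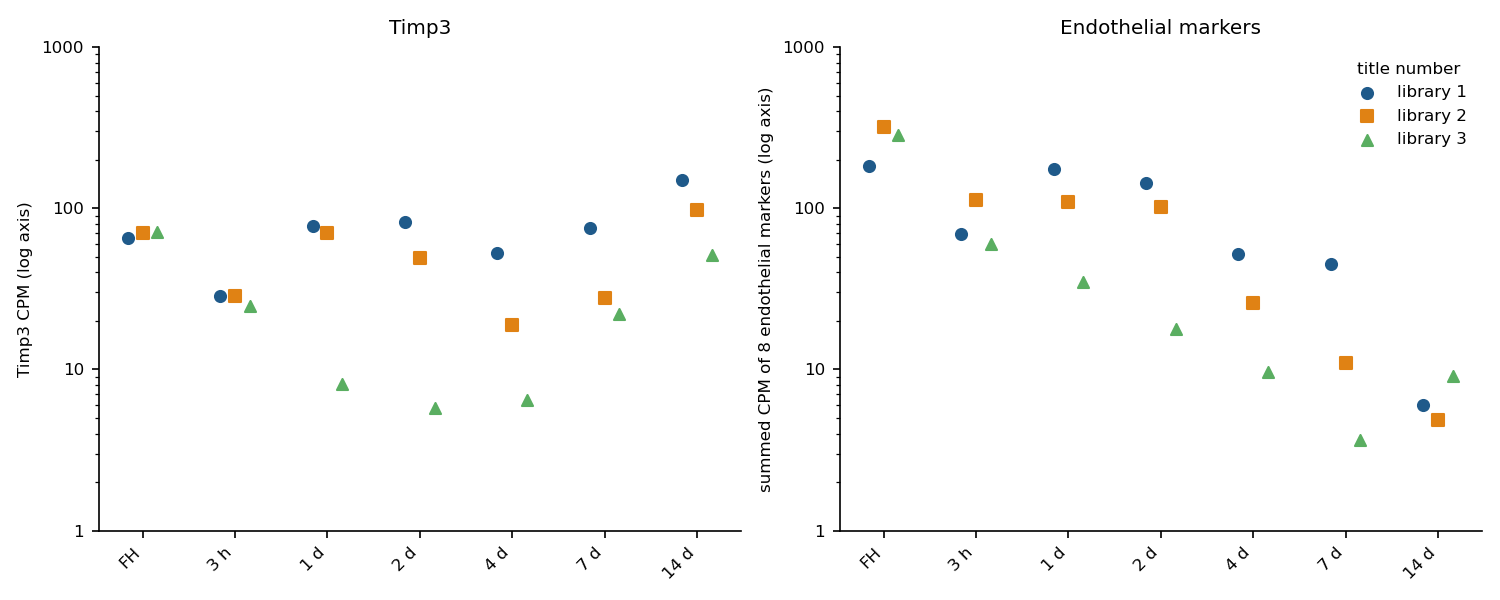
Timp3 (left) and the summed level of 8 endothelial markers (right), both in CPM on a log axis, in the 3 libraries of FHs and of each time after plating; symbols give the number of the library in its title. At 1, 2, 4 and 7 days the libraries stand in the same order in both panels, while in FHs, at 3 h and at 14 days they do not. Markers of other non-parenchymal cells, not drawn, had the same order at 2, 4 and 7 days. From 1 to 14 days the libraries with the same title number also share the number in their descriptions.

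The make-up of the inhibitor transcripts changed as well. Timp3 was 76.1% to 93.8% of the Timp1, Timp2 and Timp3 counts in FHs and 88.9% to 96.6% at 3 h. At 4 days the median share of Timp1 was 58.7%, with a range of 19.7% to 76.2%. At 14 days Timp2 was 63.1% to 77.7%, and in dediHeps 89.8% to 97.9%. Stellate cell or fibroblast markers, present at 7 and 14 days, were near 0 in dediHeps. There Timp2 was at 287 to 557 CPM, and Col1a2, Col3a1, Lum, Pdgfrb and Lrat had no count. The part of these cells in the Timp2 values was not tested.

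**Figure D3:**
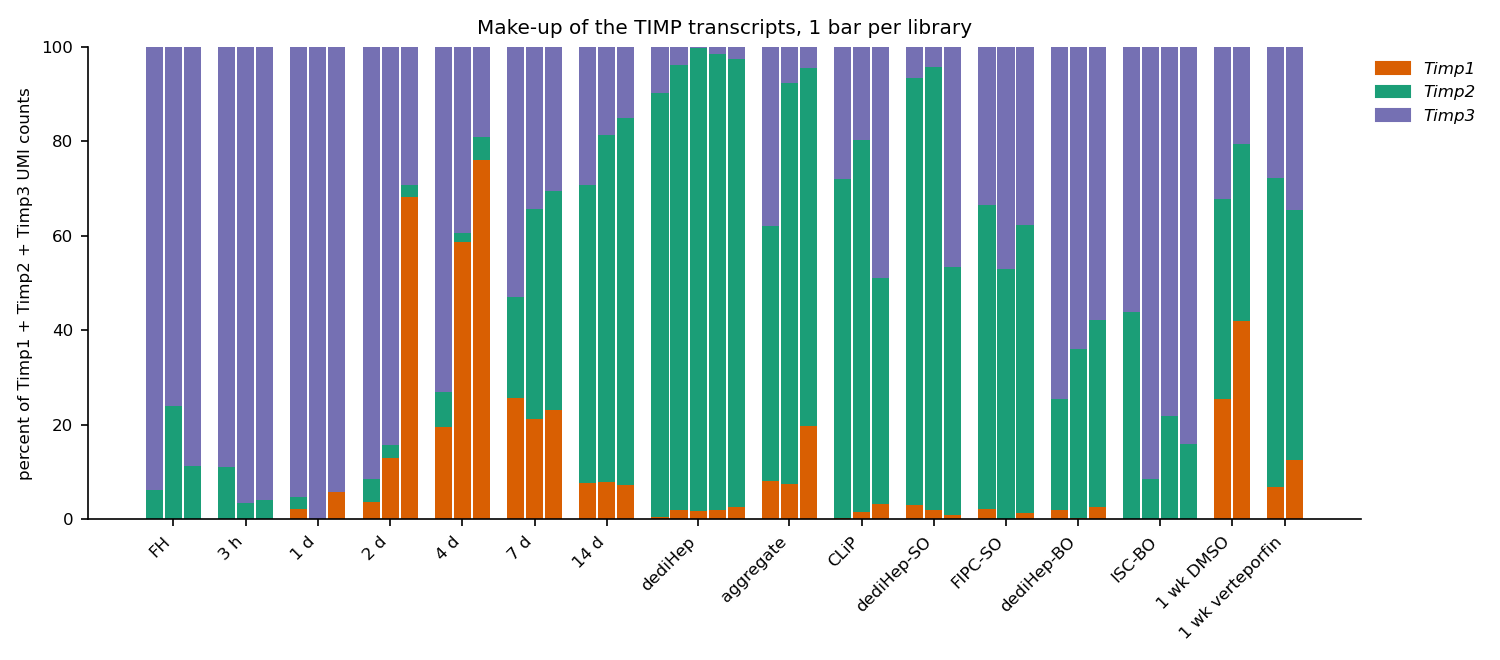
Share of Timp1, Timp2 and Timp3 in their summed UMI counts, in percent, with 1 bar per library. Timp3 makes up most of each bar in FHs and at 3 h, Timp1 has its largest median share, 58.7%, at 4 days, and Timp2 makes up 89.8% to 97.9% in the 5 dediHep libraries.

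Other genes of the system were read from a list of 68, of which 67 were in the table and 33 were tested in the time course. At 3 h 4 were called higher and 1 lower, and at 7 days 10 and 10. Plg, the zymogen that the activators cleave, fell from 1729 ± 484 CPM in FHs to 59.6 at 2 days (log2 fold change -5.02 ± 0.48) and 1.38 at 7 days (-10.37 ± 0.64). Anxa2, a cell surface docking site for plasminogen and Plat, rose by 7.00 ± 0.47 at 1 day and by 7.90 ± 0.48 at 14 days. Of 20 other metalloproteinases 2 were tested in the time course. Mmp19 fell by 4.61 ± 0.52 at 1 day (FDR = 5.36e-07), and Mmp24, named after its values were seen, had 0 counts in FHs and 11.4 CPM on average at 7 days, where 1 of these 2 was called higher and 1 lower.

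In dediHeps, Plaur, Mmp14, Timp1 and Timp2 were higher and Mmp15 lower than in FHs. Of the 6 tested, 4 were called higher and 2 lower, while 25.7% of 11276 genes were called. Plaur and Timp1, with 1 and 0 counts in FHs, passed the filter on low counts through the dediHep libraries. These counts of calls are therefore no test of the set. Plaur was at 14.8, 9.66, 6.17, 7.33 and 7.72 CPM, all above the FHs, with a ratio of 23.3 (95% counting interval 4.08 to 927, FDR = 0.00476). Timp1 was at 2.74, 7.12, 5.86, 8.55 and 7.72 CPM, at least 5.81-fold above FHs (FDR = 0.00357). Timp2 was at 557, 344, 315, 403 and 287 CPM (log2 fold change 4.84 ± 0.57, FDR = 6.06e-05). Mmp14 was at 67.3, 48.3, 51.2, 23.6 and 57.4 CPM (2.15 ± 0.57, FDR = 0.0113), and its fold was under the threshold without FH replicate 2 (1.81), FH replicate 3 (1.96) or dediHep replicate 1 (1.98). None of these 4 overlapped with FHs, but the share of all genes without overlap was not computed. Mmp15 was at 1.09, 2.54, 4.63, 3.66 and 3.86 CPM, all under the FHs (-3.36 ± 0.45, FDR = 0.000152).

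In dediHeps, Timp3 and Plat stood far higher in 1 culture than in the other 4. Timp3 was at 60.8 CPM in dediHep replicate 1 and at 13.7, 0.926, 6.11 and 7.72 in the others, with a log2 fold change of -2.12 ± 0.90 against FHs (FDR = 0.0867). That call was lost when any library but dediHep replicate 1 was left out, with FDR values of 0.139 to 0.171, or with the fold under the threshold without dediHep replicate 3 (-1.79). Plat was at 69.0 CPM in the same replicate 1 and at 6.61, 0.926, 3.26 and 3.86 in the others, and it did not pass the filter on low counts against FHs, which had none. Without that filter it was called higher (FDR = 0.00547), by at least 12.2-fold, and without replicate 1, from the other 32 of 158 counts, by at least 2.95-fold. With that replicate left out, the fold of Timp3 against FHs was -3.54 (FDR = 0.000732). Endothelial markers in dediHep replicate 1 had 0 counts, and its 8 hepatocyte markers had the lowest sum of the 5 cultures, 845 against 2101 to 4361 CPM. The part of any cell type in the Timp3 and Plat values was not tested.

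In aggregates of dediHeps, Mmp15 and Timp2 were closer to FH levels than in monolayer. Format and medium changed together here and cannot be told apart. Of 6 members tested, 1 was called higher and 1 lower against dediHeps in monolayer, with 9.51% of 11265 genes called. Mmp15 rose to 32.5, 32.6 and 23.6 CPM (log2 fold change 3.22 ± 0.43, FDR = 0.00136), and no aggregate overlapped with a dediHep. Timp2 fell to 15.5, 103 and 43.1 CPM (-2.79 ± 0.54, FDR = 0.00875), also without overlap. Mmp14 was at 13.9, 25.6 and 16.9 CPM and fell by 1.36 ± 0.41 (FDR = 0.049), under the fold threshold. With the shared culture as a replicate block the folds of Mmp15 and Timp2 were 3.59 and -3.24, and the count of calls stayed at 2. Plat had 158 counts in 5 dediHeps, of which 126 were in replicate 1, and 2 counts in the aggregates.

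Against FHs, aggregates had 2 of 4 tested members called (16.6% of 9544 genes). Mmp15 was at 29.6 CPM on average beside 28.6 in FHs. Timp3 stayed low at 10.8, 9.13 and 2.56 CPM, against 65.3 to 70.8 in FHs (-3.35 ± 0.53, FDR = 0.00088). Timp2 was still higher (2.06 ± 0.72, FDR = 0.056), but not without FH replicate 1 (FDR = 0.155), FH replicate 3 (0.139) or aggregate replicate 2 (0.238), and in the last case 1 call was left. Plaur and Timp1 did not pass the filter on low counts here, yet Timp1, with no count in FHs and 2.32, 9.13 and 11.3 CPM in aggregates, was at least 7.44-fold higher. Of the listed genes, Plg rose to 402 CPM in aggregates, by 8.02 ± 0.77 against dediHeps (FDR = 0.000247), and Mmp19 rose by 2.79 ± 0.48 (FDR = 0.00503).

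**Figure D4:**
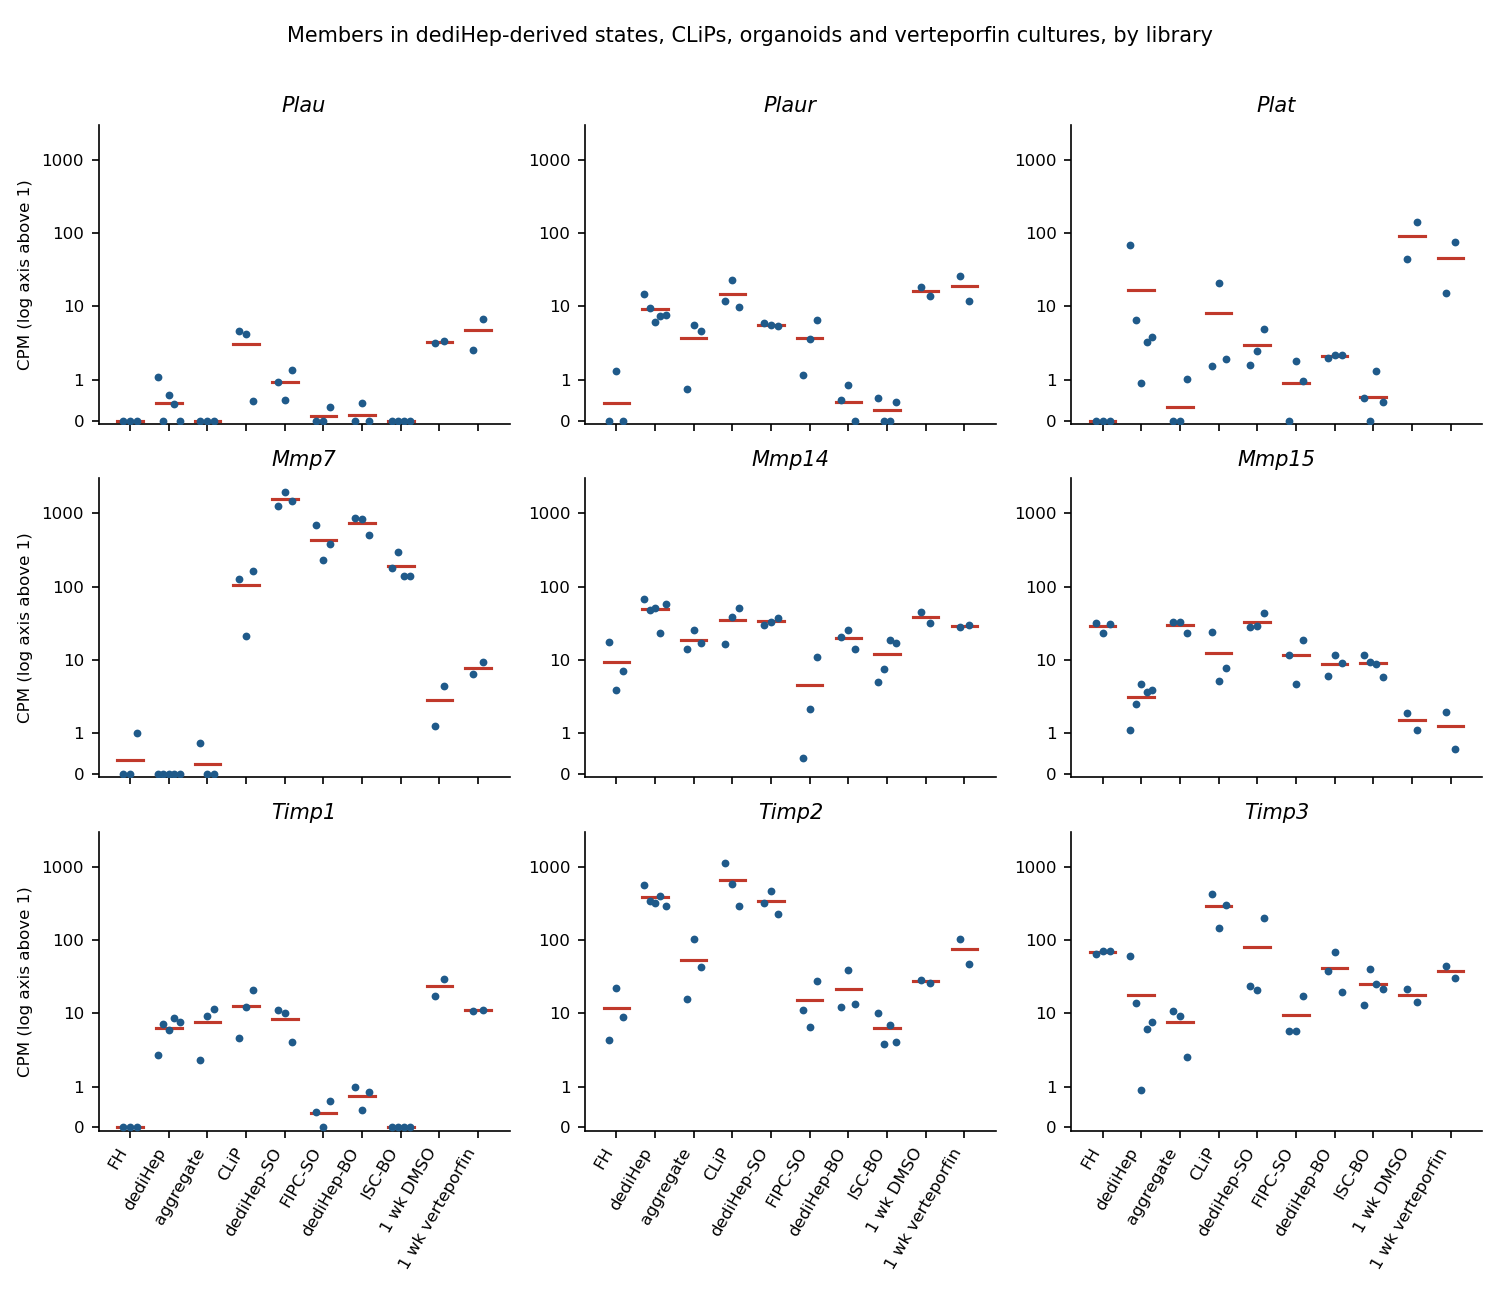
Level of each member in CPM (symmetric log axis, linear under 1) in FHs, dediHeps and their aggregates, CLiPs, the 4 kinds of organoid and 7-day cultures with DMSO or verteporfin; each point is a library and red bars are means. Mmp7 stood at or above 139 CPM in every organoid library and at 0 in the 5 dediHeps, and Timp2 was at or above 225 CPM in dediHeps, CLiPs and dediHep-SOs.

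CLiPs, another progenitor state made from hepatocytes, differed from dediHeps in Mmp7 and Timp3. Of 8 tested members, 2 were called higher and 0 lower (3.04% of 11567 genes). Mmp7, with no count in dediHeps, passed the filter on low counts through the CLiP libraries, so that this count is no test of the set. Mmp7 was at 126, 21.02 and 164 CPM in CLiPs and had 0 counts in all 5 dediHeps, so that it was at least 308-fold higher (FDR = 0.012), or 204-fold without CLiP replicate 3 and 561-fold without replicate 2. Timp3 was at 429, 148 and 300.0 CPM (log2 fold change 3.98 ± 0.97, FDR = 0.0619), its highest level in the series. That call was lost without CLiP replicate 1 or 3 or dediHep replicate 2, 4 or 5 (FDR 0.102 to 0.223), and with replicate 1 of the dediHeps left out the fold was 5.38. Endothelial markers summed to 0.512 to 1.95 CPM in CLiPs. The macrophage or blood cell markers, of which 2 or 3 of 9 were detected in a library, were higher than in dediHeps, as given above. The stellate cell or fibroblast markers summed to 21.5, 3.35 and 29.8 CPM in CLiPs, in the order of Mmp7 over the 3 libraries, and the 6 cholangiocyte markers to 1537 to 2797 against 1075 to 1655 in dediHeps. Their part in the Mmp7 and Timp3 values was not tested. Timp2 was at 1106, 588 and 294 CPM and did not pass the threshold against dediHeps (FDR = 0.391). Without CLiP replicate 2, Mmp15 was called as well (2.29, FDR = 0.0856). Plau was at 4.61, 4.25 and 0.488 CPM in CLiPs (9, 19 and 1 counts), and its highest mean in the series was 4.70 CPM, in verteporfin cultures.

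In dediHep-SOs, Mmp7 became the most abundant of the members. Of 8 tested members, 2 were called higher and 0 lower against dediHeps (8.76% of 11470 genes). Mmp7, with no count in dediHeps, passed the filter on low counts through the dediHep-SO libraries, so that this count is no test of the set. Mmp7 was at 1266, 1946 and 1464 CPM, at least 5817-fold above the dediHeps, which had none (FDR = 1.22e-05). Its counts, 4018, 3878 and 3235, were 98.1%, 94.7% and 79.0% of the 4096 different tags that 6 bases allow, the highest count of any gene here, so that the level is a lower limit. If tags were drawn evenly, the molecules behind them would be 16224, 12015 and 6388. Mmp15 was at 28.4, 28.6 and 43.0 CPM (log2 fold change 3.38 ± 0.42, FDR = 0.000543), a level that overlapped with FHs and lay above every dediHep. Timp2 stayed at 322, 462 and 225 CPM (FDR = 0.775). Timp3 was at 23.6 and 20.6 CPM in 2 libraries and at 199 in replicate 3, and was called only without dediHep replicate 1 (3.60, FDR = 0.0211) or under 2 other settings. Of the 31 listed genes tested, 3 were called higher and 7 lower. Spint1, an inhibitor of the HGF activator, rose by a log2 fold change of 4.56 ± 0.45 (FDR = 0.000134) and St14, the membrane protease matriptase, by 4.47 ± 0.73 (FDR = 0.00266). Serpinf2, which encodes the plasmin inhibitor, was lower by a log2 fold change of -8.69 ± 1.15 (FDR = 0.000739). The 6 cholangiocyte markers summed to 3349 to 4351 CPM in dediHep-SOs, against 1075 to 1655 in dediHeps.

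The organoids allowed budding and spherical forms to be compared in each origin. In the study, spherical organoids were induced in medium with Wnt agonists. The dediHep-BOs were started in that medium and later grown without the agonists, while crypts were kept without them throughout. The earlier medium thus also differed between dediHep-BOs and ISC-BOs. Only the dediHep-BOs were transfected with Cdx2, so that form, medium and Cdx2 cannot be told apart in the liver arm. Going from dediHep-SOs to dediHep-BOs, 2 of 6 tested members were called, both lower, with 12.7% of 12379 genes called. Plaur passed the filter on low counts through the spherical organoids. Plaur went from 5.99, 5.52 and 5.43 CPM to 0.501, 0.864 and 0 (log2 fold change -3.51 ± 0.85, FDR = 0.00722), a ratio of 12.6 with a counting interval of 4.02 to 63.5. Timp2 went from 225 to 462 CPM down to 12.01, 38.5 and 13.4 (-3.97 ± 0.57, FDR = 0.000148). Mmp15 fell by 1.90 ± 0.44 (FDR = 0.00587) and Mmp7 by 1.11 ± 0.38 (FDR = 0.0403), both under the fold threshold. Since the counts of Mmp7 in dediHep-SOs were close to the limit, the fold of Mmp7 after the correction for repeated tags was -2.29 (FDR = 0.0024). No library of dediHep-BOs overlapped with dediHep-SOs in any of these 4, but the share of all genes without overlap was not computed. Timp1 was at 11.0, 10.0 and 4.07 CPM in dediHep-SOs and at 1.00, 0.432 and 0.862 in dediHep-BOs, but did not pass the filter on low counts. Under 3 other filters or tools it was tested and called, with folds from -3.50 to -3.37.

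Between FIPC-SOs and ISC-BOs, which differ in form, medium and age, 1 of 6 members was called (7.64% of 12379 genes). Plaur was at 1.16, 3.62 and 6.46 CPM in FIPC-SOs and at 0.562, 0, 0 and 0.456 in ISC-BOs (-3.79 ± 0.87, FDR = 0.00815), a ratio of 16.9 with a counting interval of 4.31 to 145. Mmp7 fell by 1.26 ± 0.35 (FDR = 0.0254), from 698, 233 and 376 CPM to 179, 297, 139 and 139, and the groups overlapped. Without FIPC-SO replicate 3, the library with collagen counts, Mmp14 was called as well (3.15, FDR = 0.0103). That library had 11.0 CPM of Mmp14 and the other two 0.387 and 2.17, and the part of fibroblasts in these values was not tested.

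The difference between the 2 origins itself was tested as an interaction, in which origin cannot be told apart from Cdx2 in the liver arm and from age in the intestinal arm. The medium differed with the form in both arms. Timp2 was the 1 member of 6 that passed, with a difference of log2 fold changes of -2.61 ± 0.78 (FDR = 0.0474), where 18.3% of 12379 genes passed. Timp2 fell between the spherical and the budding form of liver origin, and in the intestinal organoids was at 11.2, 6.51 and 27.8 CPM in FIPC-SOs and 10.1, 3.81, 6.96 and 4.10 in ISC-BOs. The difference was lost without dediHep-SO replicate 2 (FDR = 0.112), dediHep-BO replicate 1 (0.103) or FIPC-SO replicate 2 (0.111). Without FIPC-SO replicate 3, Mmp14 (-3.89, FDR = 0.0144) and Mmp15 (-2.01, FDR = 0.0724) passed too, and without ISC-BO replicate 4 Mmp15 did (FDR = 0.0929).

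Organoids of the same form were then compared between origins. In dediHep-SOs 3 of 6 members were called higher than in FIPC-SOs (10.2% of 12379 genes): Timp2 (4.45 ± 0.59, FDR = 9.02e-05), Timp3 (3.08 ± 0.83, FDR = 0.0158) and Mmp14 (2.84 ± 0.69, FDR = 0.00868). Timp3 rested on dediHep-SO replicate 3, without which the fold was 1.20 (FDR = 0.132). Mmp14 was at 30.2, 33.1 and 37.1 CPM in dediHep-SOs and at most at 11.0 in FIPC-SOs. Mmp7 (1.83 ± 0.39, FDR = 0.00347) and Mmp15 (1.52 ± 0.43, FDR = 0.0204) were higher under the fold threshold, and without FIPC-SO replicate 1 or 3 the count of calls was 5. With the correction for repeated tags the fold of Mmp7 was 3.08 (FDR = 0.000392). Timp1 had 64 counts in dediHep-SOs and 3 in FIPC-SOs, a ratio of 24.4 with a counting interval of 7.99 to 122.

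Between dediHep-BOs and ISC-BOs 0 of 6 members were called by edgeR (3.93% of 12379 genes) and 0 of 8 by DESeq2, while 2 had an unadjusted p under 0.05. Mmp7 was at 852, 820 and 505 CPM in dediHep-BOs, above all 4 ISC-BOs (1.98 ± 0.35, FDR = 0.00394), and Timp2 was higher by 1.84 ± 0.55 (FDR = 0.0686). Both lay just under the fold threshold, and 1 or both crossed it without dediHep-BO replicate 1 or 3 or ISC-BO replicate 1 or 2 (folds of 2.10 to 2.29). The 7 Paneth cell markers summed to 2348 to 4321 CPM in dediHep-BOs and 3475 to 4672 in ISC-BOs, and to 959 to 1557 in FIPC-SOs. Mmp7 was highest in dediHep-SOs, the organoids with the lowest Paneth cell marker sum. The part of Paneth cells in the Mmp7 values was not tested.

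**Figure D5:**
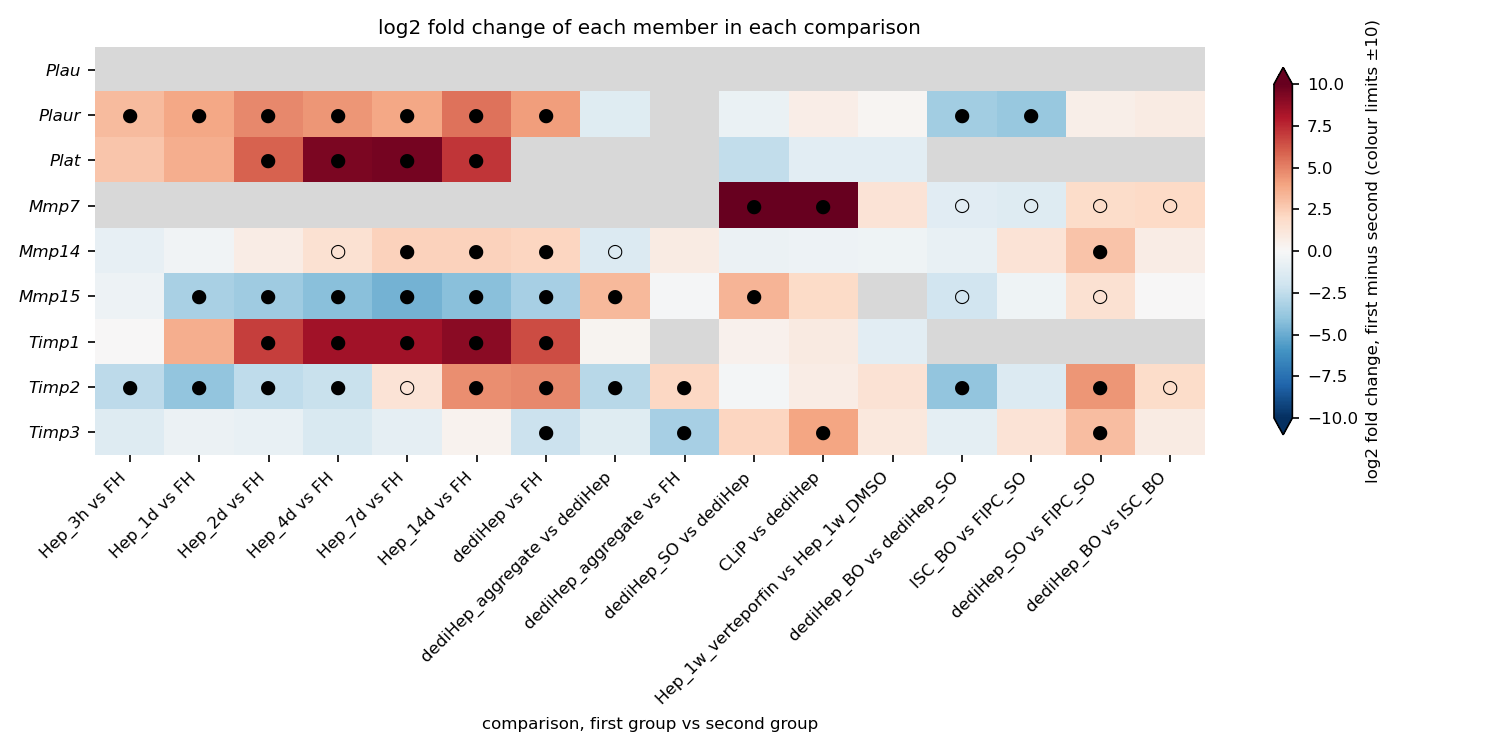
log2 fold change of each member in 16 comparisons (colour, first group minus second, limits of ±10). Filled circles mark members called, open circles those with an FDR under 0.1 but a fold under the threshold, and grey cells members not tested; folds against groups with no count, as for Mmp7 in dediHep-SOs and CLiPs, depend on the model's prior count. Mmp15 is lower at 1 to 14 days and in dediHeps than in FHs and higher in aggregates and dediHep-SOs than in dediHeps.

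Verteporfin, which blocks the action of YAP with TEAD factors, was compared with DMSO at 7 days with 2 libraries each. Of 7 tested members, 0 were called by edgeR (0.269% of 10400 genes) and 0 of 6 by DESeq2, and 4 had an unadjusted p under 0.05. Timp2 was at 105 and 46.7 CPM with verteporfin and at 28.4 and 26.2 with DMSO. Timp1 was at 10.9 and 11.2 with verteporfin and at 17.0 and 29.5 with DMSO. Timp3 (44.3 and 30.5 against 21.5 and 14.5) and Mmp7 (6.42 and 9.33 against 1.26 and 4.45) did not overlap either, and the FDR of these 4 was 0.277 to 0.536. Mmp14 (28.2 and 29.9 against 44.8 and 31.7) was also without overlap (FDR = 0.756). With 2 libraries each, groups that do not differ often fail to overlap, and the share over all genes was not computed. Endothelial markers summed to 27.0 and 20.5 CPM with verteporfin and 12.6 and 7.24 with DMSO; those of stellate cells or fibroblasts summed to 34.0 and 25.5 against 24.6 and 11.1. The part of these cells in the values was not tested. Plau was at 2.57 and 6.84 CPM (4 and 11 counts) with verteporfin and at 3.15 and 3.34 (5 and 6 counts) with DMSO, and these overlapped. Plat was at 15.4 and 75.3 CPM with verteporfin and at 44.8 and 140.2 with DMSO, the condition with its highest mean in the series, and was called only without verteporfin replicate 2 (-2.55, FDR = 5.47e-05).

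Across the 16 conditions, neighbours in the order of levels mostly overlapped. Of 15 neighbouring pairs, 3 were separate for Mmp7, 2 for Timp2, none for Plau and 1 for each of the other members. For Mmp7 the order ran from dediHep-SOs (1559 ± 349.9 CPM, mean ± SD) over dediHep-BOs (726 ± 191), FIPC-SOs (436 ± 238) and ISC-BOs (189 ± 74.8) to CLiPs (104 ± 74.0), and the separate pairs were the first, that from CLiPs to verteporfin cultures (7.87 ± 2.06) and the next one down. For Timp2 CLiPs (663 ± 411), dediHeps (381 ± 107), dediHep-SOs (336 ± 119) and 14-day cultures (326 ± 59.3) overlapped and stood apart from all lower conditions. For Mmp15 dediHep-SOs (33.3 ± 8.38), aggregates (29.6 ± 5.17), FHs (28.6 ± 4.49) and 3 h cultures (20.3 ± 8.05) led, each overlapping with the next.

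Likeness to other genes was read as Pearson's r over the 16 condition means of log2(CPM + 1), among 12758 genes with at least 10 CPM in a condition; conditions derived from each other and shared cultures are not independent points. Mmp7 was closest to Ehf (r = 0.98), an epithelial ETS factor, Pof1b and Kcne3. Timp1 was closest to Lgals1 (0.97), the galectin-1 gene, Timp2 to Porcn (0.96), Plat to the cytokine gene Lif (0.96), Mmp14 to Cep97 (0.93), Mmp15 to Zfp467 (0.92) and Plaur to Msn (0.91), which encodes moesin. For Timp3 the highest r with any gene was 0.79. Among the members, r was 0.87 for Mmp14 with Timp1 and 0.81 for Plat with Timp1, and -0.78 for Plat with Mmp15.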

How the data were processed

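Poly(A) RNA of 49 libraries had been sequenced by CEL-Seq2, and the deposited table held UMI counts per Ensembl gene, not normalized. Per the submitters' processing notes, the authors used bcl2fastq 2.20, Bowtie2 2.3.1 and HTSeq 0.6.0 on GRCm38. A UMI of 6 bases (inferred from a ceiling of 4096 in the counts) limits the count of abundant genes. The annotation and strand setting of counting are not given in the sources used here. Totals were 861047 to 3872936 counts. Symbols were paired with 45143 of 46078 identifiers.

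Groups came from the labels. Genes were filtered with filterByExpr (minimum count 10, total 15), scaled with TMM and tested with edgeR 4.0.16 (quasi-likelihood, Benjamini-Hochberg) in R 4.3.3, calling genes with an FDR below 0.1 and a log2 fold change beyond 2 in either direction. CPM were scaled over all 49 libraries. DESeq2 1.42.0, other filters and scalings, replicate blocks and leaving out each library were alternatives. Counting intervals (95%, Clopper-Pearson) and floors of 3 counts cover counting error only. The code was tested on simulated data.

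The members and gene lists were chosen with earlier results of these data known. All 9 members are described, with a log2 fold change where the FDR was under 0.1 and CPM otherwise, and for leave-one-out values in all cases; of the other pathway genes, at most the 4 with the smallest p among those called in a comparison were eligible to be named, and 1 of them is not reported here. Like-named aggregate and dediHep cultures deviated together in all 3 pairs (r = 0.172, 0.231 and 0.323). Like-named dediHep-SO and dediHep cultures did not (3 pairs, r from -0.435 to 0.0203). The culture was a replicate block in an alternative fit of both comparisons, while the main fits had no block. Time course libraries with the same title number did not consistently deviate together (63 pairs, r from -0.539 to 0.598). No replicate pair agreed within sampling noise (chi-square per degree of freedom 5.62 to 68.0).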

Additional observations from a re-analysis of the deposited data

Results flagged for a closer look

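Among 15 combinations of a member and a group that was large enough, 2 held a library far from the others by Dixon's criterion, which chance alone passes in about 1 in 20. Both were in dediHep replicate 1. Plat was at 69.0 CPM (126 counts) there, and the next library had 6.61 CPM. Timp3 was at 60.8 CPM (111 counts), and the next had 13.7 CPM. Plat and Timp3 thus stood out in the same culture, which also stood apart over all genes, with rank correlations of 0.759 to 0.842 to the other 4 dediHep cultures, against 0.880 to 0.917 among those.

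The change of Timp2 between spherical and budding organoids differed between liver and intestinal origin, with a difference of log2 fold changes of -2.61 (edgeR quasi-likelihood interaction test, Benjamini-Hochberg adjusted p = 0.0474). It was the 1 member of 6 that passed, where 18.3% of 12379 genes did. With 1 library left out 0 to 3 members passed, and Timp2 was lost without any of the single libraries named above. The dediHep-BOs were transfected with Cdx2 and the ISC-BOs were not, and the intestinal organoids differed in age, so that origin, Cdx2 and age cannot be told apart in this difference. The medium differed with the form in both arms.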

How the results depend on the processing

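No result changed its direction. With 1 library left out, the calls were 22 to 27 for the time course (26 with all libraries), 4 to 5 for dediHeps against FHs (6), 2 to 2 for aggregates against dediHeps (2), 1 to 3 for aggregates against FHs (2), 2 to 3 for dediHep-SOs against dediHeps (2), 1 to 3 for CLiPs against dediHeps (2) and 0 to 1 for verteporfin (0). For the organoids they were 2 to 4 for dediHep-BOs against dediHep-SOs (2), 1 to 2 for ISC-BOs against FIPC-SOs (1), 3 to 5 for dediHep-SOs against FIPC-SOs (3), 0 to 2 for dediHep-BOs against ISC-BOs (0) and 0 to 3 for the interaction (1). Of 886 member log2 fold changes with an FDR under 0.1 so recomputed, 43 no longer had one, and of 476 under other settings 11 did not. Counting also members that crossed the fold threshold or the filter on low counts, 37 calls were lost and 39 gained with 1 library left out. Under other settings, looser fold thresholds included, 23 were lost and 57 gained. Leaving out FH replicate 1 or 3 lowered each bound against FHs 1.52 or 1.595 times, since the 3 counts then stand over fewer libraries.

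Fitting only the 2 groups compared gave 17 calls in the time course, since 9 members called otherwise no longer passed the filter, and 0 for ISC-BOs against FIPC-SOs. Without a low-count filter there were 4 for aggregates against FHs, 1 for dediHep-BOs against ISC-BOs and 3 for the interaction. A 0.5 CPM filter and a fit of all 49 libraries each gave 4 for aggregates against FHs. With the title number as replicate block there was 1 call for aggregates against FHs, 1 for CLiPs against dediHeps and 2 for the interaction. In the time course this block lost Plaur at 3 h (FDR = 0.101) and gained Timp3 at 4 days (-2.03, FDR = 0.00892). A block on the number in the descriptions, chosen after seeing the data, lost Plaur (2.66, FDR = 0.555) and Timp2 (-1.34, FDR = 0.708) at 3 h and gained Timp3 at 4 days (-2.11). The culture as replicate block changed no call for aggregates or dediHep-SOs against dediHeps.

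Correcting for repeated tags gave 4 calls for dediHep-BOs against dediHep-SOs, 5 for dediHep-SOs against FIPC-SOs and 1 for dediHep-BOs against ISC-BOs. Without the organoid libraries that held collagen counts, a setting chosen after seeing the data, there were 2 for ISC-BOs against FIPC-SOs, 5 for dediHep-SOs against FIPC-SOs and 2 for the interaction. This left 1 library of dediHep-BOs, which was assumed to vary like the other groups. At any fold the organoid comparisons had 4, 2, 5 and 2 calls in the order above. With an FDR below 0.05 and a log2 fold change beyond 1 they had 4, 2, 5 and 1, and aggregates against FHs and CLiPs against dediHeps had 1 each. The causes were not tested. At 3 counts in a library, levels under 0.775 to 3.48 CPM could not be told from 0, which limits Plau in most conditions and Plaur, Plat and Timp1 in FHs.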
